A study of Mus musculus with 6 samples.

Results

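Macrophages that are exposed to RANKL, the cytokine that drives osteoclast formation, fuse with each other into large multinucleated cells that resorb bone. The 6 genes described here encode proteins tied to that fusion step: Dcstamp and Ocstamp, multi-pass membrane proteins of the fusing cell, Cd47 and Sirpa, a surface ligand and its inhibitory receptor, Cd44, the hyaluronan receptor, and Sbno2, a nuclear cofactor. They were chosen by symbol, and each matched 1 row among the 28795 genes of the deposited table. All 6 were among the 11908 genes tested, those that reached an FPKM of 1 (fragments scaled for gene length and library depth) in 3 or more libraries.

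Gene expression was measured by RNA sequencing of poly(A) RNA from mouse bone marrow monocytes, the macrophage precursors of osteoclasts, kept in M-CSF at 50 ng/ml. The 3 libraries of day 5 came from cells given RANKL at 50 ng/ml for 5 days, and the 3 libraries of day 0 from cells before that exposure, although their treatment label also reads RANKL. The strain, age and genotype of the mice are not given in the sources used here, and no culture kept for 5 days without RANKL was analysed here, so RANKL and time in culture cannot be told apart. The labels do not say whether libraries of the same day are separate cultures or animals, and p-values therefore measure only the spread between these libraries, which may be technical.

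In mice without Dcstamp or Ocstamp, osteoclast precursors differentiate but stay mononuclear, which is why both are known as master proteins of osteoclast fusion. CD47 on one cell binds SIRPA on its neighbour, a contact known both as a signal against phagocytosis and as a step of macrophage fusion. CD44 binds hyaluronan and osteopontin and has also been linked to macrophage fusion. In mice, SBNO2 is known to raise Dcstamp transcription by relieving the repressor TAL1 with the help of MITF.

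Total counts per library were 70888492 to 73234377 on day 5 and 64616609 to 82721513 on day 0, so counting error is small beside the spread between libraries for all but the lowest genes. An 18S rRNA-related gene took 4.09% of the counts of day 0 replicate 1 and 0.158% to 0.508% elsewhere. Macrophage markers were present on both days, with summed CPM (depth-scaled counts, after TMM scaling) of 7733 to 9107 on day 5 and 20653 to 24176 on day 0. The 8 osteoclast markers summed to 25281 to 28341 CPM on day 5 and 371 to 539 CPM on day 0. The 15 stromal and osteoblast markers summed to 14935 to 16232 CPM on day 5 and 21252 to 27816 CPM on day 0, and 3 of the 13 that were tested fell. Summed markers of B cells (5 matched), T and NK cells (5), megakaryocytes (4), erythroid cells (5) and dendritic cells (6, with Flt3 at 0 in every library) lay under 7 CPM in each library, and 7 neutrophil markers at 8.39 to 19.9 CPM on day 5 and 16.1 to 22.5 CPM on day 0. Of the 4 neutrophil markers that were tested, 2 rose and 2 fell. In these bulk libraries, fewer cells of a type and less RNA per cell cannot be told apart, and the part of the stromal transcripts in the values below was not tested.

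A gene was called when its Benjamini-Hochberg adjusted p from edgeR's quasi-likelihood test was under 0.05 and its log2 difference, day 5 minus day 0, was at least 1 in size. "Rose" and "fell" are used of called genes alone. Of the 6 genes, Dcstamp and Ocstamp rose and none fell. Over all tested genes, 5.84% rose and 6.47% fell, 12.3% in all. By the adjusted p alone, 3 of the 6 genes were higher on day 5, beside 26.6% of all genes tested, and 1 was lower, beside 28.8%; together these are 4 of 6, beside 55.5%. The libraries of the days did not overlap in CPM for 4 of the 6 genes, beside 63.3% of all genes tested.

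Dcstamp encodes the dendritic cell-specific transmembrane protein, which is carried on the surface of osteoclast precursors. The gene (ENSMUSG00000022303) lies on the plus strand of chromosome 15, from 39745930 to 39760938, in coordinates that match mouse build GRCm38. Its counts were 24531, 26590 and 25961 on day 5, with 515, 220 and 413 on day 0. These are 335, 371 and 352 CPM on day 5 and 8.32, 3.11 and 5.12 CPM on day 0. Every day 5 library stood far above every day 0 library, and the day 0 libraries differed 2.68-fold among themselves. The mean was 353 ± 18.1 CPM on day 5 and 5.51 ± 2.63 CPM on day 0 (SD, n = 3 each). Dcstamp rose 64.5-fold, a log2 difference of 6.01 ± 0.27 (SE, edgeR adjusted p = 1.27e-08) with a 95% interval of 42.5-fold to 97.8-fold. It was the gene with rank 49 from the highest difference among the 11908 tested.

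Ocstamp, the osteoclast stimulatory transmembrane protein, is related to DC-STAMP and acts beside it in fusion. The gene (ENSMUSG00000027670) lies on the minus strand of chromosome 2, from 165393760 to 165400405. It had 12288, 12144 and 10666 counts on day 5 and 262, 205 and 483 counts on day 0, which are 168, 170 and 145 CPM on day 5 and 4.23, 2.89 and 5.98 CPM on day 0. As for Dcstamp, the days stood far apart. Ocstamp rose 36.6-fold, at 161 ± 13.9 CPM on day 5 and 4.37 ± 1.55 CPM on day 0, a log2 difference of 5.19 ± 0.21 (SE, edgeR adjusted p = 4.77e-09) with a 95% interval of 26.7-fold to 50.1-fold. It had rank 71 from the highest difference. In limma on log2(FPKM + 1), a scale that understates changes of low genes, the log2 difference of Ocstamp was 4.39, below that interval.

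**Figure D1:**
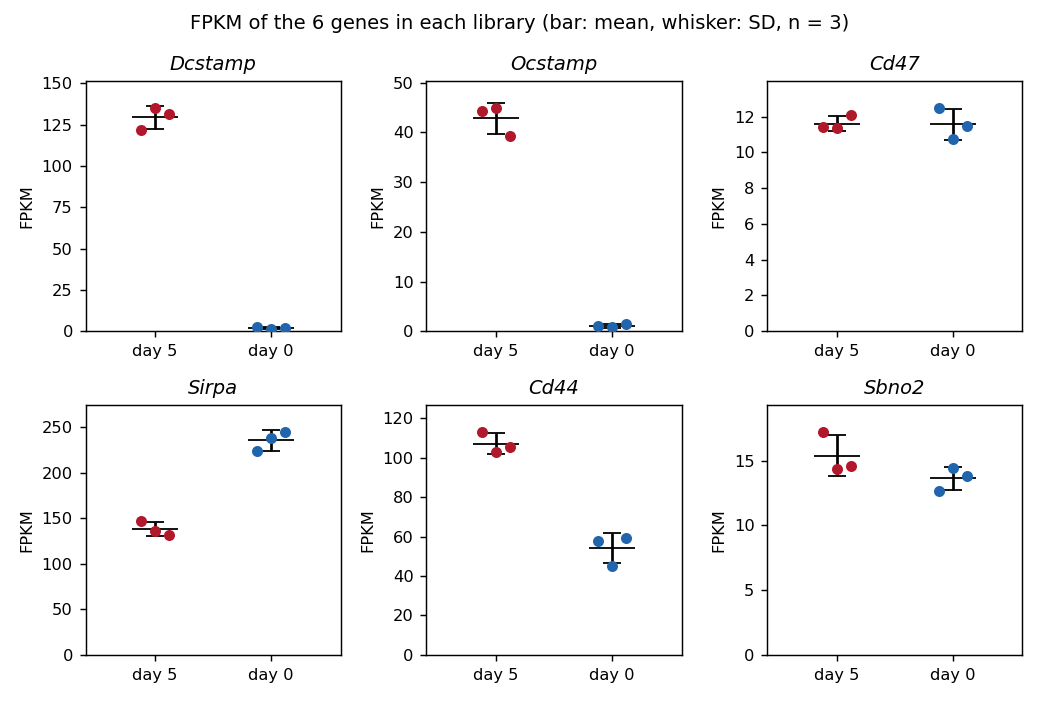
FPKM of each of the 6 genes (vertical axes, each from 0) in the 3 libraries of day 5 (red) and the 3 of day 0 (blue); points are libraries, bars means and whiskers SD. Dcstamp (122 to 135 on day 5, 1.10 to 2.84 on day 0), Ocstamp and Cd44 lie higher on day 5, Sirpa lies lower, and the days overlap for Cd47 and Sbno2.

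The proportion of the pair was compared within each library. On the FPKM scale, which allows levels of different genes to be compared, Dcstamp stood at 2.74, 3.01 and 3.34 times Ocstamp in the day 5 libraries and at 2.70, 1.47 and 1.17 times in the day 0 libraries. The ratio was higher in each day 5 library, with a difference of 0.86 between the means of the log2 ratios (SD 0.14 on day 5 and 0.63 on day 0), but day 0 replicate 1 came close to the lowest day 5 library. An exact permutation test on the ratio (two-sided) returned p = 0.1, which is as low as 3 libraries a day can reach, so a difference in proportion is not established. Without day 0 replicate 1 the log2 difference of the ratio was 1.21, and without day 0 replicate 3 it was 0.60.

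Sirpa encodes signal-regulatory protein alpha, the inhibitory receptor of macrophages for CD47. The gene (ENSMUSG00000037902) lies on the plus strand of chromosome 2, from 129592835 to 129632228. It had 54742, 49325 and 48226 counts on day 5 and 74227, 86876 and 103237 counts on day 0, or 748, 689 and 655 CPM on day 5 and 1199, 1227 and 1279 CPM on day 0. All 3 day 5 libraries were lower than all 3 day 0 libraries. The mean was 697 ± 47.2 CPM on day 5 and 1235 ± 40.5 CPM on day 0, a log2 difference of -0.82 ± 0.08 (SE, edgeR adjusted p = 4.66e-06), beyond the replicate spread but under the size threshold. Its 95% interval runs from 0.501 to 0.636 of the day 0 level. Of the 10 macrophage markers 8 fell over the same days, beside 6.47% of all genes tested. Cd68, a marker that was not called, was higher on day 5 (1291, 1140 and 1075 CPM) than on day 0 (809, 775 and 811 CPM). The part of the macrophage markers in the Sirpa difference was not tested.

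Cd47 encodes the integrin-associated protein that SIRPA recognises. The gene (ENSMUSG00000055447) lies on the plus strand of chromosome 16, from 49800533 to 49911091 in the table. It had 5423, 5265 and 5638 counts on day 5 and 5311, 5036 and 6169 counts on day 0, or 74.1, 73.5 and 76.5 CPM on day 5 and 85.8, 71.1 and 76.4 CPM on day 0. The day 5 libraries all fell within the range of the day 0 libraries. The log2 difference was -0.06 ± 0.08 (SE, edgeR adjusted p = 0.549), and its 95% interval of 0.854 to 1.08 times the day 0 level excludes differences as large as those of Sirpa and Cd44. The direction was positive on library totals without TMM (0.0016), in limma on log2(FPKM + 1) (0.0067), in limma on log2(FPKM + 0.1) (0.0074) and without day 0 replicate 1 (0.03).

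RNA of the receptor was far more abundant than RNA of its ligand per length on both days. The deposited gene model of Cd47 ends earlier than the model in the GENCODE M21 annotation. The effect of this on the ratio was not tested, and protein was not measured. Sirpa stood at 12.9, 11.98 and 10.9 times the FPKM of Cd47 in the day 5 libraries and at 17.9, 22.1 and 21.4 times in the day 0 libraries. The ratio was lower in every day 5 library, 11.9 ± 0.988 on day 5 and 20.4 ± 2.25 on day 0, with a difference of -0.77 between the means of the log2 ratios. The same exact permutation test returned p = 0.1, again the lowest it can reach.

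**Figure D2:**
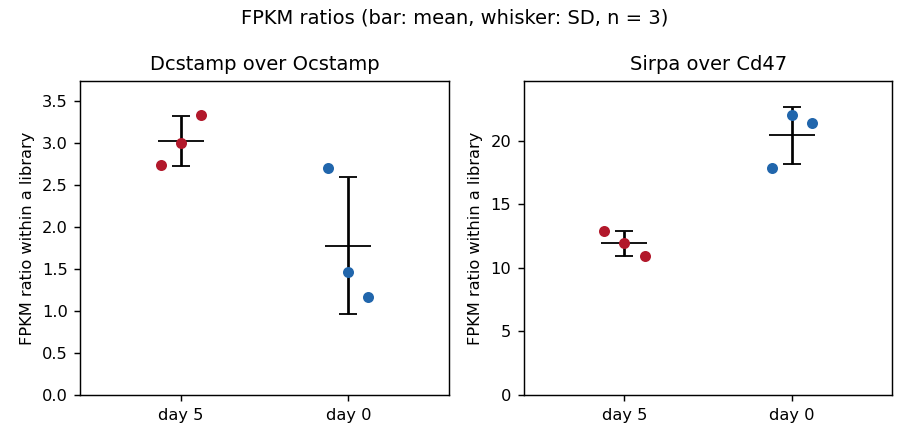
FPKM ratio within each library (vertical axes, from 0) of Dcstamp over Ocstamp on the left and Sirpa over Cd47 on the right, for day 5 (red) and day 0 (blue); points are libraries, bars means and whiskers SD, n = 3. The Sirpa ratio is 10.9 to 12.9 on day 5 and 17.9 to 22.1 on day 0, while 1 day 0 library of the Dcstamp ratio (2.70) lies beside the lowest day 5 library (2.74).

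Cd44 encodes an adhesion receptor for hyaluronan and osteopontin. The gene (ENSMUSG00000005087) lies on the minus strand of chromosome 2, from 102811141 to 102901665. It had 58103, 51414 and 53243 counts on day 5 and 26417, 22862 and 34526 counts on day 0, or 794, 718 and 723 CPM on day 5 and 427, 323 and 428 CPM on day 0. Each day 5 library was above each day 0 library. The mean of 745 ± 42.5 CPM on day 5 was 1.90 times the 392 ± 60.3 CPM of day 0, a log2 difference of 0.92 ± 0.11 (SE, edgeR adjusted p = 2.39e-05) just under the size threshold. Without day 0 replicate 1 the log2 difference was 1.00 and without day 0 replicate 3 it was 1.02, and with either left out the gene was called. Stromal cells express Cd44 as well, and their part in its level was not tested.

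Start regions of 3 of the 6 genes, Cd44, Cd47 and Sbno2, were found in the RefSeq promoter table of build GRCm38.p6, each 300 bases, with 250 before the start site and 50 from it on. Those of Cd44, which was higher on day 5, and of Cd47, whose days overlapped, are shown to set the pair side by side, 5′ to 3′ on the strand of the gene. Capitals mark GGAAA, the core letters of NFAT binding, on either strand. The Cd44 region is chr2:102901616-102901915 on the minus strand, and its start site is the last base of the gene in the deposited table. The Cd47 region is chr16:49855404-49855703 on the plus strand, inside the longer gene model of the table.
Cd44: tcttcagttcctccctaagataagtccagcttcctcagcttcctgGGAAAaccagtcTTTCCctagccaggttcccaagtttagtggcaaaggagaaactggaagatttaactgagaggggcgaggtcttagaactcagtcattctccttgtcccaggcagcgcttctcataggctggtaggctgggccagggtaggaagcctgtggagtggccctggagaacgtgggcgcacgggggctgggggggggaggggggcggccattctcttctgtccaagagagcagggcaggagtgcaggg
Cd47: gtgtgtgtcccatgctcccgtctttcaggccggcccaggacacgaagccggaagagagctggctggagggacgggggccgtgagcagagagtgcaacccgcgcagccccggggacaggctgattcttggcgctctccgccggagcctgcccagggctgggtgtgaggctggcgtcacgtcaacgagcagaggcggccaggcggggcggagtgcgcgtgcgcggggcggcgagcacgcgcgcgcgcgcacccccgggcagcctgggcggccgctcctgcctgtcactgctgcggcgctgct
The Cd44 region held this NFAT motif at position -205 and its reverse complement at -193, counted from the start site. It was not found in the Cd47 region on either strand. Sbno2, which was not called either, held it in 2 of its 3 entries, at -147 in one and at -209 and, reversed, at -34 in another. Over 32851 promoters of the same length, 61.3% held it on either strand. The AP-1 letters TGANTCA, present in 7.81% of promoters, were not found in any entry of the 3 genes. The regions also differed in composition, with 58.0% G and C and 6 CpG in Cd44 and 74.0% and 35 in Cd47. These matches describe letters, not bound sites.

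Sbno2 encodes strawberry notch homologue 2. The gene (ENSMUSG00000035673) lies on the minus strand of chromosome 10, from 80056992 to 80105571. It had 13993, 11367 and 11633 counts on day 5 and 9214, 11521 and 12714 counts on day 0, or 191, 159 and 158 CPM on day 5 and 149, 163 and 158 CPM on day 0. Replicate 1 of day 5 was the highest library, and the other day 5 libraries lay within the range of day 0. The log2 difference was 0.11 ± 0.08 (SE, edgeR adjusted p = 0.270), with a 95% interval of 0.952 to 1.23 times the day 0 level. Without day 5 replicate 1 it was 0.02.

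**Figure D3:**
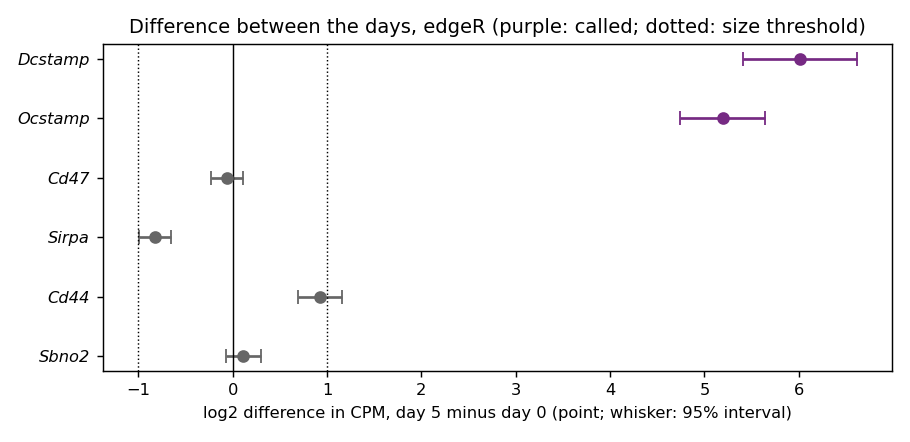
Log2 difference in CPM (horizontal axis, day 5 minus day 0) of the 6 genes with 95% intervals from edgeR, n = 3 libraries a day; dotted lines mark the size threshold and purple points called genes. Dcstamp (6.01) and Ocstamp (5.19) lie far to the right, Cd44 (0.92) and Sirpa (-0.82) within the dotted lines, and the intervals of Cd47 and Sbno2 span 0.

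The order of the 6 genes by level changed with the rise of the fusion proteins. On day 5 Sirpa (138 ± 7.91 FPKM), Dcstamp (129 ± 6.89 FPKM) and Cd44 (107 ± 5.47 FPKM) stood highest, followed by Ocstamp (42.9 ± 3.16 FPKM), Sbno2 (15.4 ± 1.61 FPKM) and Cd47 (11.6 ± 0.405 FPKM). On day 0 the order was Sirpa (235 ± 11.1 FPKM), Cd44 (54.1 ± 7.67 FPKM), Sbno2 (13.7 ± 0.888 FPKM), Cd47 (11.6 ± 0.866 FPKM), Dcstamp (1.91 ± 0.876 FPKM) and Ocstamp (1.11 ± 0.399 FPKM). The libraries of Sirpa and Dcstamp overlapped on day 5, and those of Dcstamp and Ocstamp overlapped on day 0. The other neighbours in each order did not overlap. Among all tested genes of a library, Dcstamp had an FPKM above 97.2% to 97.4% of genes on day 5 and above 5.24% to 25.9% on day 0. FPKM levels depend on the length of the authors' gene models, and that length, as counts and FPKM imply it, was about 11.1 kb for Sbno2 and 2.77 kb for Dcstamp.

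On day 0 the fusion proteins varied most of the 6 genes, with a coefficient of variation of 47.7% for Dcstamp and 35.5% for Ocstamp, against 3.28% to 15.4% for the other genes. Replicate 2 was the lowest day 0 library for Dcstamp (56.3% of the day 0 mean), Ocstamp (66.2%), Cd44 (82.2%) and Cd47 (91.4%). It was also the lowest for all 8 osteoclast markers, among them Mmp9, a collagen-degrading protease, at 62.9% and Acp5, the tartrate-resistant acid phosphatase, at 73.6% of their day 0 means. The share of all tested genes that were lowest in this library was not counted, so the pattern is not shown to be particular to these genes. The osteoclast markers summed to 530, 371 and 539 CPM in day 0 replicates 1, 2 and 3. Dcstamp was highest in replicate 1, the library rich in 18S-related counts, and Ocstamp in replicate 3; the part of these library differences in the values was not tested. Without replicate 2 of day 0 the log2 difference was 5.75 for Dcstamp and 4.98 for Ocstamp. On day 5 the coefficient of variation of the same pair was 5.13% and 8.63%.

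**Figure D4:**
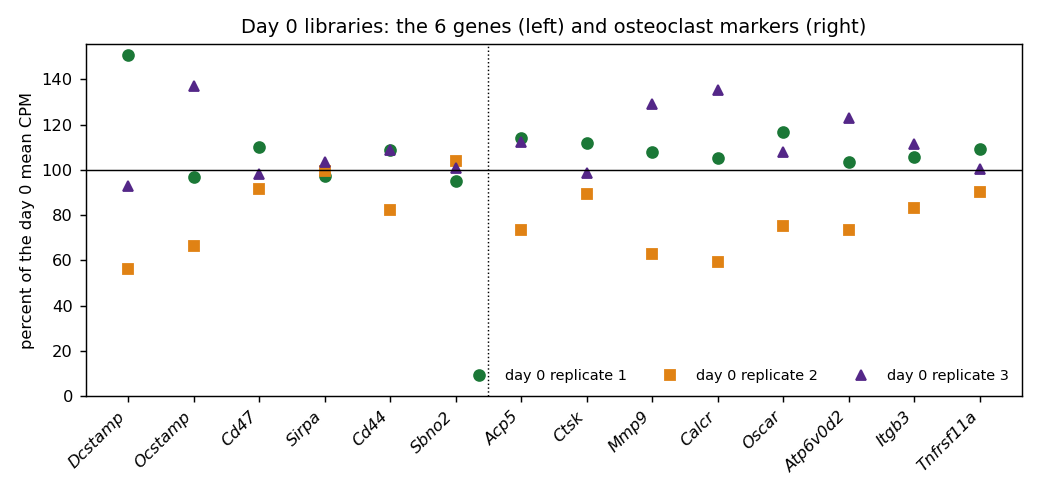
CPM of each day 0 library as percent of the day 0 mean (vertical axis, from 0) for the 6 genes, left of the dotted line, and 8 osteoclast markers, right of it; symbols are the 3 libraries. Replicate 2 lies lowest for Dcstamp, Ocstamp, Cd44, Cd47 and all 8 markers. The share of all tested genes lowest in it was not counted.

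The genes with the most similar course over the 6 libraries were sought by the Euclidean distance between log2 CPM profiles centred on their mean. For Dcstamp these were Scin, the actin-severing protein scinderin (distance 0.51), at 125 ± 4.12 CPM on day 5 and 1.71 ± 0.585 CPM on day 0, and Mapk4, an atypical MAP kinase (0.57), at 7.58 ± 0.346 CPM on day 5 and 0.103 ± 0.0406 CPM on day 0. For Ocstamp they were Akap6, an anchoring protein of protein kinase A (0.40), at 173 ± 9.50 CPM on day 5 and 4.10 ± 1.16 CPM on day 0, and Slc18a1, a vesicular monoamine transporter (0.44), at 49.8 ± 2.66 CPM on day 5 and 1.23 ± 0.260 CPM on day 0. Scin, Mapk4, Akap6 and Slc18a1 had an FPKM under 1 in every day 0 library and passed the filter through day 5 alone. Mapk4 had only 8, 4 and 10 counts on day 0, so its likeness there is uncertain. The nearest to Sirpa were Myo7a, an unconventional myosin (0.04), and Ctsb, the lysosomal protease cathepsin B (0.06), with log2 differences of -0.83 and -0.85. Cd44 was nearest to Ccbe1 (0.12) and Il2rg, the common gamma chain of interleukin receptors (0.14), with log2 differences of 0.99 and 0.85. The day 0 FPKM of Ccbe1 was 0.787 ± 0.102, so Ccbe1 too passed the filter through day 5 alone. Cd47 was nearest to 1110032A03Rik and Thap2 (both 0.04), and Sbno2 to Tmem268 and Golga2 (both 0.10), none of which differed at an adjusted p under 0.05.

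Other genes were read from 7 lists of fusion and partner genes, which share some members. Of their 171 tested genes, each counted once, 25 rose and 32 fell, beside 5.84% and 6.47% of all genes tested. Lists were chosen for known roles in these cells and with earlier results of these data known, so these counts cannot show enrichment. No list was tested as a set.

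Of 25 tested genes in a list of fusion-linked membrane and adhesion proteins, which also holds secreted chemokines, 7 rose and 6 fell; the median log2 difference was 0.01, beside -0.00 over all tested genes. Mst1r, the receptor of macrophage-stimulating protein, had 71.1, 65.8 and 60.7 CPM on day 5 and 1.00, 0.861 and 1.08 CPM on day 0 and rose 66.9-fold (edgeR adjusted p = 1.20e-10). Its day 0 FPKM was 0.18 ± 0.02, so it passed the filter through the day 5 libraries alone. In limma on log2(FPKM + 1) its log2 difference was 3.55. Atp6v0d2, a proton pump subunit that is required for osteoclast fusion in mice, had 860, 870 and 933 CPM on day 5 and 29.7, 21.2 and 35.4 CPM on day 0 and rose 30.8-fold (edgeR adjusted p = 1.96e-09). The remaining genes of this list are named after their values were seen. The other risers were Cd109, Cd200, Tspan7, Cd82 and Tspan5. Those that fell were Cd200r1, Adam8, Cd53, Cd81 and the chemokines Ccl2 and Ccl3. Cd200, an immunoglobulin-family ligand, rose 9.96-fold (146 ± 4.13 CPM on day 5, 14.7 ± 1.89 CPM on day 0), while Cd200r1, its inhibitory receptor, fell 2.34-fold (25.3 ± 3.02 CPM on day 5, 59.3 ± 1.52 CPM on day 0). The called tetraspanins split: Tspan7 rose 11.5-fold, and Cd81, known to restrain macrophage fusion, fell 2.07-fold. The tetraspanins Cd9 and Cd63 had log2 differences of 0.52 and 0.36, under the size threshold. The log2 difference of Cd81 was under the size threshold on library totals without TMM (-0.995), in limma on log2(FPKM + 1) (-0.98) and in limma on log2(FPKM + 0.1) (-0.99). Cd82 lost its call without day 5 replicate 2 (0.98) or day 0 replicate 3 (0.98), Tspan5 without day 5 replicate 2 (0.99) and in limma on log2(FPKM + 1) (0.71), and Ccl2 without day 0 replicate 1 (-0.92) and in that limma fit (-0.92).

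The gene ontology column of the deposited table annotates 11 genes to macrophage or osteoclast fusion, a list taken up after values were known. Dcstamp, Ocstamp and Sbno2 are among them, and the other 8 were all tested. Of these 1 rose, Cd109, a membrane protein anchored by a lipid, 8.82-fold to 410 ± 11.4 CPM on day 5, against 46.5 ± 5.94 CPM on day 0. There were 3 that fell: Trem2, an ITAM-coupled receptor, 3.37-fold, Adam8, a membrane metalloprotease, 2.24-fold, and Cd81. Adam9, Tcta, Tyrobp and Sh3pxd2a, which encodes the podosome scaffold TKS5, had log2 differences of -0.59, -0.35, -0.24 and 0.59. Over all tested genes 5.84% rose and 6.47% fell. With so few genes, and with the list taken up after values were known, these counts describe the named genes and not the annotation.

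**Figure D5:**
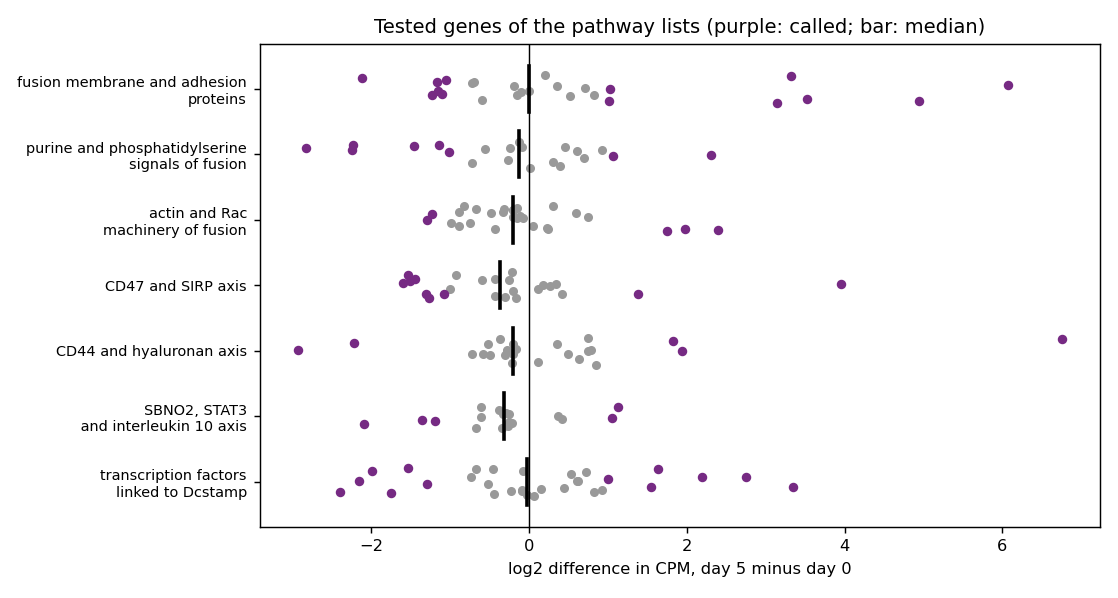
Log2 difference in CPM (horizontal axis, day 5 minus day 0) of each tested gene of the 7 lists (rows), without the 6 genes themselves; purple points are called genes and black bars list medians. Medians run from -0.36 for the CD47 and SIRP axis to 0.01 for the list of membrane and adhesion proteins, with called genes on both sides in every row.

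Of 24 tested genes of the CD47 and SIRP axis, 2 rose and 7 fell, with a median of -0.36. Thbs1, the secreted thrombospondin that binds CD47, had 3670, 3671 and 3502 CPM on day 5 and 7670, 8925 and 9469 CPM on day 0 and fell 2.40-fold (edgeR adjusted p = 1.52e-06). Thrombospondin is also made by stromal cells, and their part in the Thbs1 difference was not tested. Lrp1, the receptor of calreticulin on phagocytes, fell 3.00-fold (1382 ± 152 CPM on day 5, 4152 ± 469 CPM on day 0). Of the 4 tested integrin genes of the list, 2 rose, 1 fell and 1 was not called. Itgb3, the beta subunit of the vitronectin receptor, had 444, 438 and 393 CPM on day 5 and 28.9, 22.8 and 30.5 CPM on day 0 and rose 15.5-fold (edgeR adjusted p = 7.91e-10). Its alpha partner Itgav rose 2.60-fold (859 ± 23.7 CPM on day 5, 330 ± 54.1 CPM on day 0). Itgam, the alpha subunit of the leukocyte integrin Mac-1, fell 2.72-fold (308 ± 39.7 CPM on day 5, 836 ± 23.0 CPM on day 0), and its beta partner Itgb2 had a log2 difference of -0.16 (edgeR adjusted p = 0.120). Itgav, Itgam and Itgb2 are named after their values were seen. Ptpn6 and Ptpn11, the phosphatases SHP-1 and SHP-2 that SIRPA recruits, had log2 differences of -0.43 and -0.21 (edgeR adjusted p = 7.86e-04 and 0.0141), under the size threshold. Sirpb1a, Sirpb1b and Sirpb1c, SIRP-family genes without the inhibitory tail, were at 0.823, 0.973 and 2.55 FPKM on day 5 and 1.96, 1.96 and 4.61 FPKM on day 0. They are named after their values were seen. They resemble each other and Sirpa in sequence, so the split of reads between them is uncertain. Sirpb1a and Sirpb1b fell, with log2 differences of -1.30 and -1.07. The log2 difference of Sirpb1b was under the threshold without day 5 replicate 2 (-0.82) or day 0 replicate 3 (-0.97), and both genes lost their call in limma on log2(FPKM + 1) (-0.71 and -0.60).

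Of 25 tested genes of the CD44 and hyaluronan axis, 3 rose and 2 fell, with a median of -0.20. Mmp9, which CD44 can hold at the cell surface, rose 108-fold (12069 ± 1368 CPM on day 5, 112 ± 37.8 CPM on day 0). Layn, the hyaluronan receptor layilin, and Hyal1, a lysosomal hyaluronidase, both named after their values were seen, rose 3.55-fold and 3.83-fold. Stab1, a scavenger receptor of macrophages, fell 7.59-fold (295 ± 50.3 CPM on day 5, 2243 ± 272 CPM on day 0), and Cemip, a hyaluronan-degrading protein, fell 4.65-fold. Spp1, which encodes osteopontin, had 3836, 3461 and 4132 CPM on day 5 and 2555, 1928 and 2307 CPM on day 0, a log2 difference of 0.75 under the size threshold (edgeR adjusted p = 2.23e-04). Has2, a hyaluronan synthase, had a log2 difference of 0.12 ± 0.14 (edgeR adjusted p = 0.495), and of -0.02 without day 5 replicate 3. With edgeR's own low-count filter the list had 6 genes that rose.

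Of 18 tested genes of the SBNO2, STAT3 and interleukin 10 axis, 2 rose and 3 fell, with a median of -0.31. Sbno1, the paralogue of Sbno2, had 110, 111 and 127 CPM on day 5 and 57.5, 44.9 and 56.3 CPM on day 0 and rose 2.19-fold (edgeR adjusted p = 2.61e-06). The difference between the courses of the paralogues was not tested. Stat3, the interleukin 10 effector upstream of Sbno2, had a log2 difference of -0.60 ± 0.07 (edgeR adjusted p = 2.55e-05). Il10ra, the interleukin 10 receptor chain, fell 4.26-fold (24.0 ± 3.78 CPM on day 5, 102 ± 4.86 CPM on day 0), and Lifr, the leukaemia inhibitory factor receptor, fell 2.55-fold. In limma on log2(FPKM + 1), which compresses low levels, Sbno1 (0.94) and Lifr (-0.78) were under the size threshold.

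Of 31 tested transcription factors linked to Dcstamp, 6 rose and 6 fell, with a median of -0.02. Nfatc1, which binds the Dcstamp promoter in osteoclast precursors, rose 4.59-fold (391 ± 33.7 CPM on day 5, 85.3 ± 13.6 CPM on day 0), and Fos, its AP-1 partner, rose 2.92-fold. Jdp2, another AP-1 family member, rose 10.2-fold, with 314, 339 and 334 CPM on day 5 and 34.5, 31.2 and 31.4 CPM on day 0 (edgeR adjusted p = 1.57e-10). Tal1, the repressor that SBNO2 is known to counter, had 3.54, 2.68 and 2.93 CPM on day 5 and 10.6, 10.0 and 10.1 CPM on day 0 and fell 3.35-fold (edgeR adjusted p = 2.92e-06). In limma on log2(FPKM + 1) its difference was -0.92, under the size threshold. The day 5 FPKM of Tal1 was 0.677 ± 0.0961, so Tal1 passed the filter through the day 0 libraries alone. Mitf, which acts with SBNO2, had a log2 difference of 0.62 ± 0.10 (edgeR adjusted p = 2.35e-04), under the size threshold. Bcl6, a repressor of Dcstamp in osteoclasts, fell 2.44-fold (21.04 ± 1.46 CPM on day 5, 51.4 ± 7.02 CPM on day 0), and Prdm1, which encodes Blimp1, a repressor of Bcl6, rose 6.74-fold (81.4 ± 6.80 CPM on day 5, 12.1 ± 0.983 CPM on day 0). Irf8, a macrophage factor that restrains osteoclast genes, named after its values were seen, fell 3.97-fold.

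In the list of purine and phosphatidylserine signals, 2 of 21 tested genes rose and 6 fell, with a median of -0.12. P2rx5, an ATP-gated channel linked to osteoclast multinucleation, rose 4.97-fold (8.34 ± 1.15 CPM on day 5, 1.68 ± 0.374 CPM on day 0), and Entpd1, the ectoenzyme CD39 that degrades ATP, fell 7.05-fold (11.2 ± 1.92 CPM on day 5, 78.9 ± 3.62 CPM on day 0). The day 0 FPKM of P2rx5 was 0.653 ± 0.154, so P2rx5 passed the filter through the day 5 libraries alone. P2rx7, the ATP receptor of macrophage giant cells, and Cd36, a scavenger receptor that binds phosphatidylserine, both named after their values were seen, fell 2.74-fold and 4.70-fold. Of 28 tested genes of the actin and Rac machinery, 3 rose and 2 fell, with a median of -0.20. Dock5, a Rac activator of osteoclasts, rose 5.27-fold (374 ± 13.1 CPM on day 5, 71.0 ± 7.20 CPM on day 0), and Src, the tyrosine kinase of the sealing zone, rose 3.94-fold (270 ± 16.4 CPM on day 5, 68.5 ± 5.08 CPM on day 0). Its other members that moved, named after their values were seen, were Rac2, which rose 3.36-fold, and Dock2 and Dock8, guanine exchange factors of leukocytes, which fell 2.45-fold and 2.34-fold.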

How the data were processed

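The authors deposited 1 table that pairs raw counts with FPKM for every gene and library, per the file headers. The deposited FPKM values are scaled for gene length and library depth. Tools listed in the submitters' processing notes are HISAT2, StringTie, fastp and edgeR, with GRCh38, a human assembly, as build. Gene identifiers are mouse, 99.7% of them are in the GENCODE M21 annotation of GRCm38, and 5 of the 6 genes have the same start and end there (Cd47 ends later). The sources used here do not say whether counting used strand. In the annotation only a small nuclear RNA on the opposite strand of Cd44 overlaps any of the 6 genes, and it has no row in the table.

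Counts were scaled by TMM and tested with edgeR 4.0.16 in R 4.3.3, with DESeq2 1.42.0 and limma 3.58.1 as alternatives, with p-values adjusted over all 11908 tested genes. Standard errors came from the log2 difference and the F statistic, and intervals from the t distribution. The test was also run on counts simulated with its own fitted dispersions. It called 97 of 100 genes changed by a log2 size of 1.5, with 5 false calls. Such counts cannot check the spread between real libraries. Same-day libraries correlated at r of 0.988 to 0.990 across genes, and any pair differed beyond counting noise (chi-square of 22.9 or more per degree of freedom). FPKM ratios used the exact permutation test. The 6 genes and the lists were chosen with earlier results of these data known. Named genes are the 6 genes, 14 partners, up to 2 called genes with the largest difference per list and the 2 most similar profiles per gene, with additions marked in the text. Symbols without a match were looked up by synonym, and repeated symbols took the most abundant entry. Alternatives were other filters, scalings, tools, pseudocounts and thresholds, each library left out, and a replicate block.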

Additional observations from a re-analysis of the deposited data

How the results depend on the processing

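Without the size threshold, Sirpa (-0.82) and Cd44 (0.92) were called beside Dcstamp and Ocstamp, 4 of the 6 genes. Under that rule 6608 of all tested genes were called, or 55.5%. In the lists it called 20 of 25 membrane and adhesion genes, 18 of 21 purine and phosphatidylserine genes and 22 of 28 actin genes. It also called 21 of 24 genes of the CD47 and SIRP axis and 21 of 25 of the CD44 axis. For the SBNO2 axis it called 15 of 18, and for the transcription factors 25 of 31. The lists were chosen with earlier results of these data known, so these counts cannot show enrichment. Of all genes called, the number was 1465, and it became 2303 without a filter on low values, 2366 with filterByExpr, where the CD44 axis had 8, and 964 in limma on log2(FPKM + 1), where the SBNO2 axis had 1. The higher calls were 529 of those 964 and 695 of the 1465. Cd47 turned positive on library totals without TMM (0.0016), in limma with a pseudocount of 1 (0.0067) or 0.1 (0.0074) and without day 0 replicate 1 (0.0330). The log2 difference of Thap2, one of the genes most like it, did so under the same settings (0.0023, 0.00400, 0.00617 and 0.0357), as did that of 1110032A03Rik without day 0 replicate 1 (0.0106), and that of Has2 turned negative without day 5 replicate 3 (-0.0191). Over all alternatives the log2 difference of Dcstamp ran from 5.53 to 6.43 and that of Ocstamp from 4.39 to 5.53, with both lowest values in limma with a pseudocount of 1. That fit moved the log2 difference of Mst1r to 3.55, the log2 difference of Scin to 4.78, the log2 difference of Mapk4 to 1.22, the log2 difference of Akap6 to 3.30, the log2 difference of Slc18a1 to 3.05, the log2 difference of P2rx5 to 1.41 and the log2 difference of Tspan7 to 2.77. Leaving out 1 library at a time gave log2 differences of 5.75 to 6.43 for Dcstamp, 4.98 to 5.53 for Ocstamp, -0.88 to -0.78 for Sirpa, 0.82 to 1.02 for Cd44, 0.02 to 0.16 for Sbno2, -0.10 to 0.0330 for Cd47, -0.0874 to 0.0357 for Thap2, -0.10 to 0.0106 for 1110032A03Rik and -0.0191 to 0.211 for Has2. Dcstamp and Ocstamp kept their direction and call under each of the 16 alternatives. P2rx4 (-1.01), named after its values were seen, lost its call under 11 of them. The cause of these changes was not tested. Equal replicate numbers did not deviate together (r of -0.07, 0.15 and 0.03 over genes for numbers 1 to 3), nor did every library correlate best with its own number. With the replicate block 1470 of all genes were called, and no call among the 6 genes changed. With 3 libraries a day, 1 gene's permutation test cannot reach 0.05.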
